A study of Danio rerio with 5 samples.

Results

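Retinoic acid genes were read out of RNA sequencing tables of zebrafish caudal fin regenerates, new tissue that grows back once the tail fin has been amputated. The 10 genes were chosen by name for their part in making, breaking down and receiving retinoic acid: rdh10a and aldh1a2 for synthesis, dhrs3a and dhrs3b for the reduction of retinal, cyp26a1, cyp26b1 and cyp26c1 for breakdown, crabp2a for binding and raraa and rarga for reception. They took up 11 of the 31540 rows of each deposited table, because cyp26c1 is listed as 2 overlapping gene models, and all 11 rows passed the filter on low counts. The study has 3 libraries labelled 24h and 2 labelled Control, all described as regenerated caudal fin tissue, and its design text speaks of fins cut 1 and 3 days earlier. What the Control samples are is not stated, and the labels name no strain, age, sex or genotype and no separate animals. Values are therefore read only as 24h against Control, and p-values measure the spread between these libraries, which may be technical.

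Retinoic acid is a small signalling molecule made from vitamin A in a pair of steps: retinol is oxidised to retinal by retinol dehydrogenases such as Rdh10, a step that Dhrs3 enzymes run in reverse, and retinal is then oxidised to retinoic acid by Aldh1a enzymes. Cyp26 enzymes, a branch of the cytochrome P450 family, oxidise retinoic acid to products that are cleared, so the amount a cell sees depends on synthesis and breakdown together. Inside the cell it is carried by Crabp proteins and bound by retinoic acid receptors (Rar), which sit on DNA with retinoid X receptors (Rxr) and switch target genes. In the zebrafish fin, synthesis by Aldh1a2 is known to be needed for the blastema, the mass of progenitors that rebuilds the fin, and breakdown by Cyp26b1 is known to help bone-forming cells to differentiate again.

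Among the 10 genes, those of synthesis were higher in the 24h libraries, those of retinal reduction were lower, and those of breakdown split. In the 24h libraries aldh1a2, rdh10a, cyp26a1 and cyp26c1 were higher, and dhrs3a, dhrs3b, cyp26b1 and rarga were lower, while crabp2a and raraa did not pass the test. These 4 higher and 4 lower genes are to be read against a background in which 9.43% of the 19034 genes tested were called higher and 14.8% lower in edgeR's quasi-likelihood test, with Benjamini-Hochberg adjustment over all of them and a threshold of 0.05. The genes were chosen with earlier results of these data known, so setting them beside these shares is a description and no test. The median log2 fold change, 24h minus Control, was 0.11 over the 11 rows and -0.0043 over all genes tested. Levels below are CPM, counts scaled to library size with edgeR's TMM factors, unless they are called TPM, the deposited values that are also scaled for exon length. The libraries held 14958600 to 22341452 reads in genes. The 24h and Control ranges of CPM stood apart in 9 of the 11 rows, both overlapping models of cyp26c1 among them, and in 56.8% of the genes tested.

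**Figure D1:**
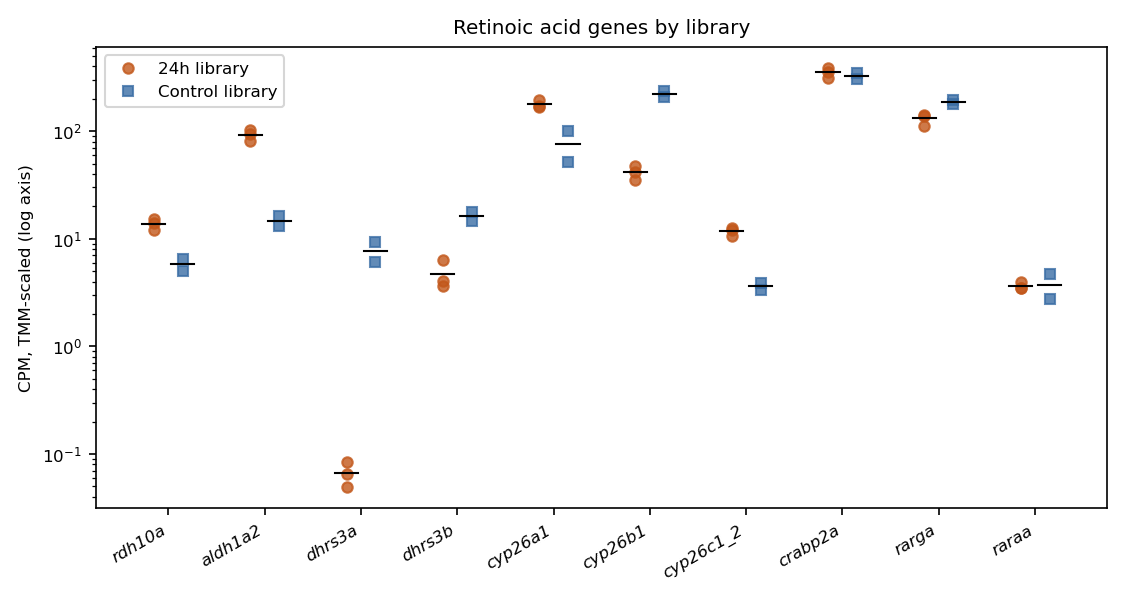
Level of each retinoic acid gene in each library as TMM-scaled CPM on a log axis, with 3 24h libraries as circles, 2 Control libraries as squares and the group mean as a bar; for cyp26c1 the second gene model is drawn. The circles and squares overlap for crabp2a and raraa and lie apart for the other genes, furthest for dhrs3a, at 0.0489 to 0.0847 CPM against 6.12 and 9.43.

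The synthesis genes aldh1a2 and rdh10a were higher in the 24h libraries. Further genes of these steps are given below, and most of them did not pass the test. The gene of the retinal dehydrogenase Aldh1a2 lies on the minus strand of chromosome 7 from 30055906 to 30096379 on the GRCz10 build, as do all coordinates here. It was at 80.8, 94.1 and 103 CPM in the 24h libraries, against 13.04 and 16.4 in the Control libraries, so each 24h library was above both Control libraries. Its log2 fold change was 2.65 ± 0.18 (SE; 3 against 2 libraries, adjusted p = 8.3e-05 in edgeR), a 6.29-fold difference, and 95.7% of the genes tested differed by less. Reads that span an exon-exon junction, which come from spliced RNA, numbered 3591 and 327, a library-scaled ratio of 6.30. The retinol dehydrogenase gene rdh10a, on the minus strand of chromosome 24 from 13107061 to 13128424, was at 12.03, 15.3 and 13.9 CPM in the 24h libraries, against 5.07 and 6.53 in the Control libraries, again with no overlap. The difference was 2.37-fold, with a log2 fold change of 1.25 ± 0.21 (SE) and an adjusted p of 0.0057 in edgeR. Its junction reads numbered 204 and 61, a smaller library-scaled ratio of 1.92. The call of rdh10a was lost without Control replicate 1 (adjusted p = 0.064).

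The Dhrs3 genes, whose enzymes turn retinal back into retinol and so draw on the same substrate as Aldh1a2, were both lower in the 24h libraries. For dhrs3a, on the plus strand of chromosome 23 from 21737080 to 21748128, the 24h libraries held 1, 2 and 1 reads and the Control libraries 116 and 143. The ratio of pooled, library-scaled reads was 113 in favour of Control (43.6 to 417 by the 95% Clopper-Pearson method, which covers counting error alone). The fitted log2 fold change was -6.72 ± 0.42 (SE; adjusted p = 6.6e-05 in edgeR), and 99.7% of the genes tested differed by less. DESeq2 gave -6.83 ± 0.83 (SE) and limma-voom -6.36 ± 0.60 (SE), so the edgeR SE is likely too small at so few 24h reads. In the Control libraries dhrs3a was at 7.78 ± 2.34 CPM (SD, n = 2). Its copy dhrs3b, on the minus strand of chromosome 11 from 28343559 to 28367434, was at 3.67, 6.31 and 4.09 CPM in the 24h libraries, against 14.8 and 17.6 in the Control libraries. The difference was 3.43-fold, with a log2 fold change of -1.78 ± 0.26 (SE; adjusted p = 0.0031 in edgeR). The groups were apart for both copies.

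The ratio between the copies stood apart in the groups as well. The log2 ratio of dhrs3a to dhrs3b reads, with 0.5 added to each, was -5.65 ± 0.25 (SD, n = 3) in the 24h libraries, against -1.08 ± 0.26 (SD, n = 2) in the Control libraries. The difference of -4.57 gave p = 0.1 in an exact two-sided permutation test, the smallest p that 3 against 2 libraries can give (0.133 adjusted over the 4 ratios compared), so it could not pass at 0.05.

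The breakdown genes did not move together. For cyp26a1, on the minus strand of chromosome 12 from 8916918 to 8920510, the 24h libraries were at 194, 172 and 167 CPM and the Control libraries at 51.6 and 99.9. All 24h libraries were above both Control libraries, and the Control libraries were further apart from each other than the 24h libraries. The log2 fold change was 1.23 ± 0.27 (SE; adjusted p = 0.019 in edgeR), a 2.35-fold difference, and the library-scaled ratio of junction reads was 2.35 as well. Leaving out Control replicate 1 gave 0.83 and leaving out Control replicate 2 gave 1.80. The call was lost when 24h replicate 1 was left out (adjusted p = 0.062).

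For cyp26b1, on the plus strand of chromosome 7 from 25052585 to 25077440, the order was the opposite, at 35.5, 47.6 and 41.4 CPM in the 24h libraries, against 208 and 239 in the Control libraries. It was 5.37-fold lower in the 24h libraries, with a log2 fold change of -2.43 ± 0.16 (SE; adjusted p = 6.7e-05 in edgeR). Junction reads numbered 465 and 1384, a library-scaled ratio of 5.19 in favour of Control.

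The third breakdown gene, cyp26c1, is listed as 2 models on chromosome 17 that lie on opposite strands and share 4601 bases. The second model (ENSDARG00000056029, minus strand, from 19503020 to 19515492) is the one that the table of gene names calls CYP26C1. It was at 12.7, 10.5 and 12.2 CPM in the 24h libraries, against 3.91 and 3.36 in the Control libraries, with a log2 fold change of 1.70 ± 0.21 (SE; adjusted p = 0.0013 in edgeR). Of its 822 reads, 358 were unique to it. The first model (ENSDARG00000097644, plus strand, from 19493735 to 19507620) had 128 reads, of which 7 were unique and 127 lay in its intron, and it did not pass (log2 fold change 1.16 ± 0.42, SE; adjusted p = 0.088 in edgeR). The sources used here do not say whether counting used strand, so reads of the models cannot be told apart where they overlap. With the reads of both models summed, a setting added after the values were seen, the log2 fold change was 1.62 ± 0.20 (SE; adjusted p = 0.0015 in edgeR), and from the unique reads of the second model alone it was 1.49.

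**Figure D2:**
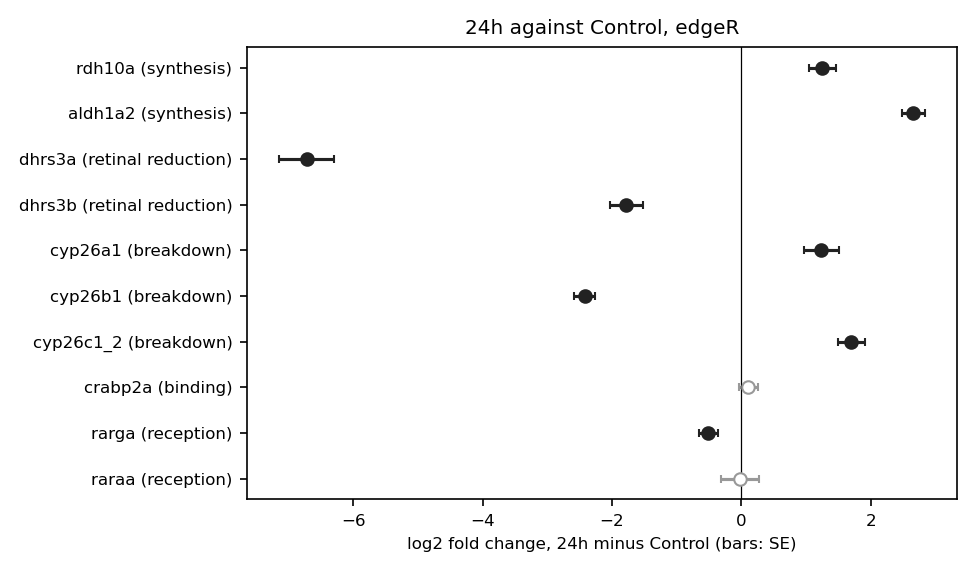
Log2 fold change, 24h minus Control, of the retinoic acid genes with standard errors as bars, in order of their step; filled points passed edgeR's test at an adjusted p of 0.05 and open points did not. The bar of dhrs3a is likely too short, since its 24h libraries held few reads. Within the breakdown step cyp26a1 and cyp26c1 lie at 1.23 and 1.70 and cyp26b1 at -2.43.

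Taken as a sum, the breakdown genes overlapped between the groups, while their shares of it did not. Their summed TPM was 225, 240.3 and 235 in the 24h libraries, against 180.0 and 254 in the Control libraries. Of that sum, cyp26a1 made up 89.6%, 86.4% and 87.03% in the 24h libraries, against 33.9% and 46.3% in the Control libraries. The share of cyp26b1 was 7.83%, 11.2% and 10.1% in the 24h libraries, against 65.0% and 53.0% in the Control libraries, and that of cyp26c1 was at most 2.82% in any library. The log2 ratio of cyp26a1 to cyp26b1 reads was 2.10 ± 0.31 (SD, n = 3) in the 24h libraries, against -1.63 ± 0.53 (SD, n = 2) in the Control libraries, with p = 0.1 in the exact permutation test, again the smallest possible. That of cyp26b1 to the second cyp26c1 model was 1.80 ± 0.35 (SD, n = 3) and 5.93 ± 0.29 (SD, n = 2), with the same p of 0.1 in the exact permutation test (0.133 adjusted over the 4 ratios for each).

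Set against the summed breakdown genes, aldh1a2 stood higher in the 24h libraries. Its TPM divided by the summed Cyp26 TPM was 0.253, 0.315 and 0.359 in the 24h libraries, against 0.0569 and 0.0518 in the Control libraries. The mean difference was 2.49 on the log2 scale, with an SD of 0.25 among the 24h libraries. This ratio describes RNA of the genes and not enzyme activity, and since the genes had been picked with results known it was given no test. It counts aldh1a2 alone on the side of synthesis. Another retinal dehydrogenase gene, aldh1a3, is left out, at a mean of 38.6 TPM in the 24h libraries and 30.9 TPM in the Control libraries. In the Control libraries that mean was above the 11.7 TPM of aldh1a2.

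**Figure D3:**
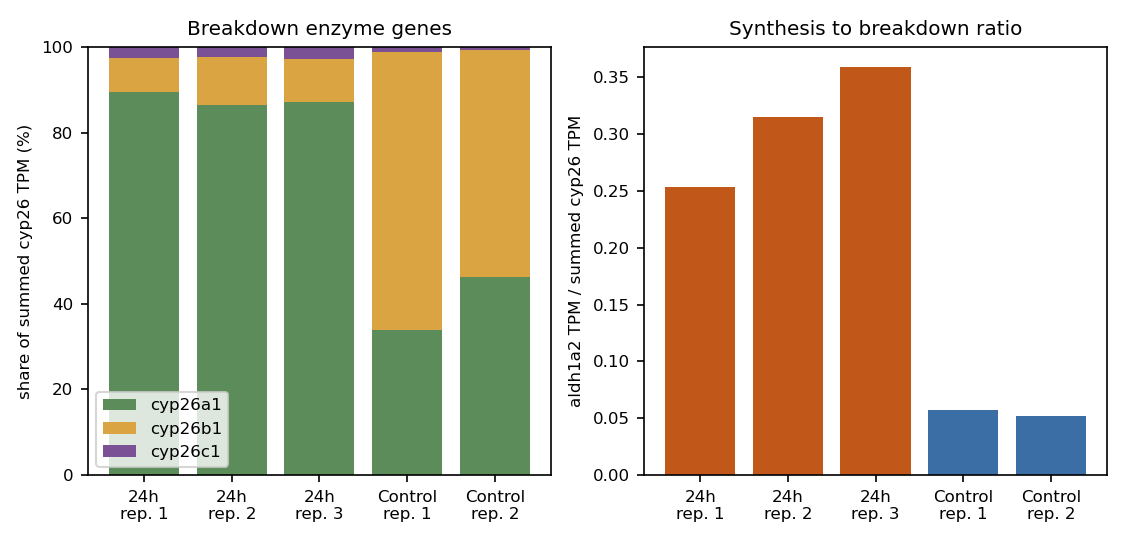
Left, share of each cyp26 gene in the summed cyp26 TPM of each library in percent; right, aldh1a2 TPM divided by that sum, per library, with bars starting at 0. The cyp26a1 share is 86.4% or more in the 3 24h libraries and 46.3% or less in the 2 Control libraries, and the ratio on the right is at least 0.253 in the former and at most 0.0569 in the latter.

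The binding and reception genes had smaller fold changes than the other 7 genes. The gene of the cytosolic carrier Crabp2a, on the minus strand of chromosome 16 from 14493359 to 14506883, was at 354, 313 and 387 CPM in the 24h libraries, against 309 and 344 in the Control libraries. The groups overlapped, and the log2 fold change of 0.11 ± 0.14 (SE) did not pass (adjusted p = 0.62 in edgeR). The receptor gene rarga, on the plus strand of chromosome 23 from 35748397 to 35864932, was at 112, 142 and 140.0 CPM in the 24h libraries, against 196 and 179 in the Control libraries. It was lower in each 24h library than in either Control library, by a log2 fold change of -0.51 ± 0.14 (SE; adjusted p = 0.039 in edgeR), or 1.43-fold. This call was lost without 24h replicate 2 (adjusted p = 0.066), without Control replicate 1 (0.239) and without Control replicate 2 (0.125). It was also lost in limma on log2(TPM + 1) and on log2(TPM + 0.1) (0.069 in both).

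The other receptor gene, raraa, spans 324523 bases of chromosome 12, from 10794672 to 11119194 on the plus strand. It was at 3.96, 3.51 and 3.51 CPM in the 24h libraries, against 2.74 and 4.75 in the Control libraries, so the Control libraries lay on either side of the 24h libraries. The log2 fold change of -0.024 ± 0.30 (SE) did not pass (adjusted p = 0.96 in edgeR). Intron reads made up 74.3% of its reads and 80.7% were unique, with 48 exon reads in the 24h and 40 in both Control libraries. Scaled to library size, the 24h to Control ratio was 0.69 for exon reads and 0.64 for junction reads. The log2 ratio of raraa to rarga reads was -5.15 ± 0.29 (SD, n = 3) in the 24h libraries, against -5.69 ± 0.65 (SD, n = 2) in the Control libraries (p = 0.4 in the exact permutation test).

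Per exon length, in deposited TPM and with the second model standing for cyp26c1, crabp2a was the most abundant of the 10 genes in both groups, at 297 ± 43.1 (24h, SD, n = 3) and 282 ± 21.6 (Control, SD, n = 2). In the 24h libraries it was followed by cyp26a1 (205 TPM), then by rarga (84.9) and aldh1a2 (72.4), whose ranges overlapped, then by cyp26b1 (22.8), rdh10a (11.1), cyp26c1 (6.04) and dhrs3b (5.30). The last of these again overlapped with cyp26c1. Below them came raraa at 0.499 TPM and dhrs3a at 0.0663. In the Control libraries rarga (128 TPM), cyp26b1 (126) and cyp26a1 (89.4) overlapped their neighbours in the order. They were followed by dhrs3b (19.4), by aldh1a2 (11.7) and dhrs3a (9.38), whose ranges overlapped, and by rdh10a (4.58), cyp26c1 (1.91) and raraa (0.767). The place of aldh1a2 thus went from the sixth in the Control libraries to the fourth in the 24h libraries, and that of dhrs3a from the seventh to the last.

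Beyond these genes, 92 gene names from 8 lists of the retinoid pathway were looked up, lists that were drawn up with earlier results of these data known. They gave 74 further rows, of which 51 were tested: 3 were higher, 15 lower and 33 did not pass, with a median log2 fold change of -0.37. These counts and those of the single lists stand beside 9.43% higher and 14.8% lower among all genes tested, 24.3% together. Genes of retinoid uptake, storage and carotenoid cleavage made up much of the lower group, with 7 of 10 lower and 3 not past the test (median log2 fold change -1.38). The carotenoid-cleaving oxygenase genes bco2b (-5.08), bco1 (-1.16), bco2a (-0.89) and bco2l (-0.82) were lower, as were the retinol carrier genes rbp4 (-3.76) and rbp5 (-2.56) and the isomerohydrolase gene rpe65b (-2.98). For rbp4, whose product carries retinol in blood, the levels were 15.7, 7.49 and 12.01 CPM in the 24h libraries, against 145 and 173 in the Control libraries. The retinol uptake receptor gene stra6, by contrast, was at 0.89 and did not pass (adjusted p = 0.088 in edgeR).

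Of 13 further genes of retinol oxidation and retinal reduction, 1 was higher and 3 lower. The higher one was rdh10b (0.78), the copy of rdh10a, at 16.2, 10.5 and 13.05 CPM in the 24h libraries, against 7.34 and 8.11 in the Control libraries, though with an adjusted p of 0.047 in edgeR. The lower ones were adh8a (-3.70, from 10 and 77 reads), adh5 (-0.56) and rdh8b (-0.76), of whose reads 98.8% lay in introns and 44.8% were unique, within other gene models. The second retinal dehydrogenase gene, aldh1a3, was at 0.35 and did not pass (adjusted p = 0.12 in edgeR), nor did aldh8a1. Among binding proteins crabp1b was lower (-1.59) and crabp2b did not pass. Among 8 further receptor genes rxrbb was lower (-0.62) and the other 7 did not pass, and 0 of 8 coregulator genes passed in edgeR, DESeq2 or limma-voom. Of the coregulators, such as ncor1 (-0.36) and ncoa2 (0.080), 2 had an unadjusted p under 0.05 in edgeR, and the adjusted p ran from 0.102 to 0.690.

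Genes known to respond to retinoic acid, mostly from embryos, gave 2 higher and 3 lower members among 8 tested. The zinc finger gene znf703 was higher by 1.97 ± 0.22 (SE), at 84.3, 65.3 and 59.98 CPM against 14.8 and 20.97, and the homeobox gene meis2a by 1.69 ± 0.22 (SE). The transglutaminase gene tgm2b (-3.69 ± 0.14, SE), the orphan receptor gene nr2f1a (-1.41) and meis1b (-0.87) were lower. Another 12 rows of this list had too few reads to be tested, and hoxb1a, hoxb4a, hoxb5a and hoxb6b had no read in any library. Across the 18 named genes outside the 10, the call was kept in every alternative for 9. It was lost in at least 1 for bco1, bco2a, bco2l, rdh10b, adh5, crabp1b, rxrbb, nr2f1a and meis1b. For crabp1b this was without Control replicate 1 (adjusted p = 0.076) and for nr2f1a without Control replicate 2 (0.139). The other 7 lost it in 3 to 5 settings, each time without Control replicate 1 among them, with adjusted p from 0.0503 to 0.323.

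**Figure D4:**
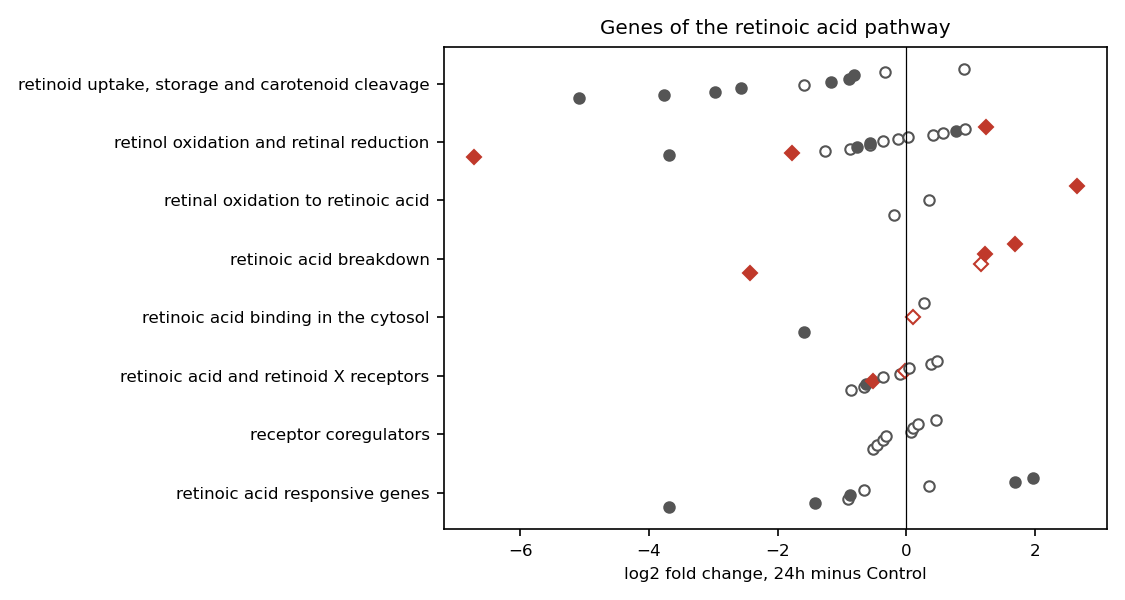
Log2 fold change, 24h minus Control, of every tested gene in the 8 retinoid lists, 1 row per list; red diamonds are the 10 genes (cyp26c1 with both models) and grey circles the other genes, filled where edgeR's test was passed. In the uptake, storage and cleavage list 7 of 10 circles are filled and all of these lie left of 0. The receptor list runs from -0.86 (rxrab) to 0.47 (rxraa) and the coregulator list from -0.51 (ncoa1) to 0.46 (nrip1a), with 1 filled circle between them.

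Markers of several cell types moved between the same groups, and in bulk tissue fewer cells of a type and less RNA per cell cannot be told apart. The marker counts stand beside 9.43% higher and 14.8% lower among all genes tested. Of the osteoblast markers 8 of 12 were lower in edgeR and the other 4 did not pass, with a summed level of 5249 to 6180 CPM in the 24h libraries, against 36757 to 36843 in the Control libraries. Most of the Control sum came from the collagen genes col1a1a and col10a1a, at means of 19849 and 10695 CPM, so it says little of the other osteoblast markers. Of 8 fibroblast markers tested 5 were lower and 1 higher (1391 to 1867 against 3913 to 4413 CPM), of 9 endothelial markers 7 were lower (32.0 to 33.6 against 177 to 182), and all 7 melanophore markers tested were lower (4.16 to 6.52 against 195 to 214). Much of the fibroblast sum came from the collagen gene col5a1, at means of 1037 CPM in the 24h and 2150 CPM in the Control libraries. Macrophage and neutrophil markers were lower in 5 of 8 (171 to 222 against 323 to 336 CPM). Epidermis markers, in contrast, were higher in 5 of 9 and lower in 1, with overlapping sums of 42432 to 54613 and 49287 to 55155 CPM. Most of the higher epidermis calls were lost without Control replicate 1. Most of the macrophage and neutrophil calls were lost without Control replicate 2, so neither count is stable to leaving out a Control library. Muscle markers summed to at most 1.71 CPM in any library, and myog had no read. Of 9 fin identity markers, all detected in both groups, 5 were lower and 1 higher (864 to 1314 against 7638 to 7853 CPM). The lower ones included the actinodin gene and2 (-5.31), and and3 and hoxd13a had 11 and 10 reads in the 24h libraries. The homeobox gene msx2b (2.77) was higher, a call lost without Control replicate 1 (adjusted p = 0.071 in edgeR). The part of these markers in the differences of the retinoic acid genes was not tested.

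The genes next to the retinoic acid genes on the chromosome were also read. Of 20 nearest tested neighbours, 1 on each side of each gene, 1 was higher and 3 were lower, where 24.3% of all genes tested were called in either direction. The lower ones were igsf21b (-2.05), 1715 bases from dhrs3a, dysf (-3.31), 212358 bases from cyp26b1, and itga10 (-3.39), 29666 bases from crabp2a, and the higher one was klhdc7a (2.03), 19109 bases from dhrs3b. Some neighbours of the Cyp26 genes carry paired names: exoc6 and reep3b flank cyp26a1, exoc6b lies beside cyp26b1 and reep3a beside cyp26c1. Of these 4 neighbours, picked by name and without dysf and slc22a15, 0 passed in edgeR, DESeq2 or limma-voom. In edgeR 1 of the 4 had an unadjusted p under 0.05. Their log2 fold changes were 0.11, -0.28, 0.031 and -0.52, in the order named.

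Profiles across the 5 libraries were compared by the root mean square distance between log2(CPM + 0.5) values, each centred on its own mean. Nearest to aldh1a2 were the cytokine gene il11a (distance 0.091, log2 fold change 2.84), the talin gene tln2a (0.107, 2.60) and the metalloprotease gene adam8a (0.154, 2.71). Nearest to cyp26b1 were palm1a (0.065, -3.24), pnp4a (0.066, -5.38) and the gelatinase gene mmp2 (0.079, -2.50). The fitted changes of palm1a and pnp4a are larger than that of cyp26b1 because the added 0.5 CPM shrinks the changes of low genes. Nearest to dhrs3a were lyve1a (0.109, -6.14), scpp6 (0.117, -6.96) and a row named COL28A1 (0.126, -3.92), a name the tables give to several copies. At 0.0489 to 0.0847 CPM in the 24h libraries, dhrs3a itself lies below the added 0.5 CPM. Its own change is thus shrunk in these distances, and the 24h side of its profile is set mostly by the added value.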

How the data were processed

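Per the file headers, each of the 5 libraries has its own deposited table of 31540 genes that holds, per gene, whole-number counts of all reads and of unique, exon, intron and junction reads. The same deposited tables give TPM and RPKM values by the authors, with decimal commas. Per the submitters' processing notes the build was GRCz10, and per the labels' protocols a stranded mRNA kit was used; the sources used here name no aligner or counting program and do not say whether strand was used. Of the reads, 94.02% to 94.96% were unique and 7.22% to 7.86% lay in introns.

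Total gene reads of all 5 libraries were tested with edgeR 4.0.16 (R 4.3.3): TMM scaling, filterByExpr, robust quasi-likelihood F test, no covariate, Benjamini-Hochberg adjustment over 19034 genes at 0.05. Standard errors were taken from the size of the log2 fold change over the root of F, which may be too small at few reads. The genes and lists were chosen with earlier results of these data known. Named were the 10 genes, up to 20 called genes of the pathway lists, a few markers and the 3 nearest profiles of aldh1a2, cyp26b1 and dhrs3a. Alternatives were other scaling, DESeq2 1.42.0, limma 3.58.1 (voom, and TPM with 1 or 0.1 added), other filters, unique or exon reads, and leaving out each library. Of the code, only the edgeR fit was tested on simulated data. The counting interval covers counting error only, and since PCR copies were not marked it may be too narrow even for that. Promoter and protein sequences were not analysed here, and 8 of the 92 pathway names matched no row.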

Additional observations from a re-analysis of the deposited data

How the results depend on the processing

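The number of retinoic acid gene rows called, 8, stayed between 6 and 8 in all 15 alternatives, and the directions of aldh1a2, rdh10a, dhrs3a, dhrs3b, cyp26a1, cyp26b1, the second cyp26c1 model, rarga and crabp2a did not change in any. That of the first cyp26c1 model did not change in the 12 alternatives that gave it a value; it has none with unique reads, exon reads or summed models. Calls were lost for cyp26a1, rdh10a and rarga in the settings given above. The log2 fold change of dhrs3a was -3.26 in limma on log2(TPM + 1) and -5.81 with 0.1 added. Both added values exceed its 24h mean of 0.0663 TPM and so shrink the change. The sign of raraa reversed in limma-voom (0.046), with unique reads (0.062), without 24h replicate 2 (0.0073), without 24h replicate 3 (0.0096) and without Control replicate 2 (0.43), and without single libraries it ran from -0.38 to 0.43. With exon reads raraa was at -0.56 and did not pass (adjusted p = 0.41 in edgeR). Over all genes, 4618 calls (1794 higher, 2824 lower) ran from 1790 to 4693 when 1 library was left out: higher genes numbered 418 without Control replicate 1, 621 without Control replicate 2 and 1061 without 24h replicate 2, and lower genes 1372 and 1587 without the Control libraries in turn, with at most 1740 higher and 2953 lower (both without 24h replicate 3). The 18 calls in the pathway lists became 10 (8 lower) without Control replicate 1 and 11 (9 lower) without Control replicate 2, ran up to 19 (17 lower, without 24h replicate 3) when 1 library was left out, and reached 22 (19 lower) with exon reads. No scaling moved the median of all genes by 0.1 on the log2 scale. Such scaling takes most genes as unchanged and so places the median near 0, and a shift shared by most genes could not be seen. The aldh1a2 to Cyp26 ratio differed by 2.38 to 2.63 without single libraries. With 2 Control libraries the calls rest on few samples, and at 4 reads the 24h level of dhrs3a is limited by counting. No paired analysis was possible because no replicate number in the labels links a 24h library to a Control library.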
